A study of Homo sapiens with 16 samples.

Results

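INTS13 and HDGF were mapped by chromatin immunoprecipitation and sequencing in HEK293T, a human cell line derived from embryonic kidney, and the intervals described here are the INTS13 sites that were listed in starved cells alone and coincided with HDGF in the same starved cells. They were chosen in 2 steps from the 15614 INTS13 intervals of starved cells on chromosomes 1 to 22 and X. An interval had to share no base with any INTS13 interval of HDGF-depleted or control cells, and at least 1 base with an HDGF interval of starved cells. This left 3574 intervals (22.9% of the 15614), called joint intervals here, and 59.5% of the starvation-only INTS13 intervals. The other intervals were 2428 starvation-only intervals that touched no HDGF interval of starved cells, 7673 intervals shared with another INTS13 list that touched HDGF in starvation, and 1939 shared intervals that did not. Membership rests on measured peaks, so presence of INTS13 and HDGF in starved cells and absence of INTS13 in the other 2 conditions are properties of the choice and not results.

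Starved cells had been kept for 24 h in medium without glucose. HDGF-depleted cells had received a pool of small interfering RNAs against HDGF for 72 h, and control cells a control depletion. All cells carried the wild-type genotype, and the labels name no control depletion for the starved cells. INTS13 was precipitated with a Proteintech antibody in starved cells and with a Bethyl Laboratories antibody in HDGF-depleted and control cells, so antibody and starvation cannot be told apart in anything that is INTS13 in starvation only. HDGF was precipitated with the same Proteintech antibody in starved and control cells. Each group had 2 labelled replicates but 1 deposited peak list, so the values have no replicate error, no test between conditions was possible, and the intervals given with shares (exact Clopper-Pearson, 95%) cover counting error only.

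INTS13 is a subunit of the Integrator complex, which binds RNA polymerase II, processes the transcripts of snRNA genes and cuts short those of many protein-coding genes with a paused polymerase. HDGF belongs to a family of chromatin proteins with a PWWP domain, a fold that binds DNA and methylated histone H3 in transcribed chromatin. Glucose withdrawal activates AMPK, which restrains mTORC1, and it engages stress responses that slow translation.

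The INTS13 list was the shortest in starved cells, with 15614 intervals, against 105975 in HDGF-depleted and 31208 in control cells on the same chromosomes, and the HDGF list held 68115 intervals in starved and 106673 in control cells. The lists carry no read totals, and depth shows only through the background per position that the authors' folds and p-values imply. Before scaling this background was 15.2 reads for INTS13 in starved, 4.2 in HDGF-depleted and 6.4 in control cells, and 9.84 for HDGF in starved and 6.69 in control cells. After scaling it was 7.41 in both lists of starved cells.

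Several of the strongest joint intervals covered GC-rich starts of genes. The first, on chromosome X from 154019685 to 154020280, covered the start of IRAK1, a kinase of interleukin-1 receptor and Toll-like receptor signalling, and had an INTS13 fold of 5.50 over background at its summit with an HDGF fold of 3.16. ZNF592, which encodes a zinc finger protein, had folds of 4.69 for INTS13 and 3.70 for HDGF in the interval on chromosome 15 from 84748340 to 84748956. MNX1, a homeobox gene of motor neurons, had 4.34 and 3.52 (chromosome 7 from 157010445 to 157011208), and ABCB10, a mitochondrial transporter, 3.93 and 3.07 (chromosome 1 from 229557919 to 229558974). In the 3 intervals at IRAK1, ZNF592 and MNX1 no HDGF interval of control cells was touched, but one lay 670, 346 and 920 bp away. The interval at ABCB10 touched one with a fold of 2.86. INTS13 of HDGF-depleted cells lay 1797, 303 and 409 bp from the intervals at IRAK1, ZNF592 and MNX1, and 37 bp from that at ABCB10. INTS13 of control cells lay 1060 bp from the interval at ABCB10 and further from the others. The start regions of these 4 genes are printed because they are the highest-ranked by INTS13 −log10 q whose 300 bases, 250 before and 50 from the annotated start, lie whole inside a joint interval. They are RefSeq sequences of GRCh38.p14, 5′ to 3′ on the strand of the gene, and capitals mark the GC box GGGCGG or its reverse complement. The regions are chrX:154019853-154020152 (minus strand), chr15:84748342-84748641 (plus strand), chr7:157010614-157010913 (minus strand) and chr1:229558658-229558957 (minus strand).
IRAK1: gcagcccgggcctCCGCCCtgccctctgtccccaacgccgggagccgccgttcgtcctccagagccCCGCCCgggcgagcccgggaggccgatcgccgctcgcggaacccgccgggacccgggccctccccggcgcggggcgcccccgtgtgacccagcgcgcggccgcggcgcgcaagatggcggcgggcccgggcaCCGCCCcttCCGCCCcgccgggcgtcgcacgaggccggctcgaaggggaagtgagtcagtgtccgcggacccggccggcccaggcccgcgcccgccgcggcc
ZNF592: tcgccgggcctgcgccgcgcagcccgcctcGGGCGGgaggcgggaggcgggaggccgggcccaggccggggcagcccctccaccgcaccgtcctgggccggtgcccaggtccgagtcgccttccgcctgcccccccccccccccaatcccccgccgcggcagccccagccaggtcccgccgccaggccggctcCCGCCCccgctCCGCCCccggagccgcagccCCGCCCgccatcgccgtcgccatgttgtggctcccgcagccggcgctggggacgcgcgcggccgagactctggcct
MNX1: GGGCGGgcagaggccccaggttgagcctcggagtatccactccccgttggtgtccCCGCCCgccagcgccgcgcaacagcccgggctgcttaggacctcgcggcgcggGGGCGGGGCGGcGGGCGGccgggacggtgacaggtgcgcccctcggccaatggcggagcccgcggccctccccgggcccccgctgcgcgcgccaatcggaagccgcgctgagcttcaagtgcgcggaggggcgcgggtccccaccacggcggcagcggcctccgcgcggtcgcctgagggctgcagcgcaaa
ABCB10: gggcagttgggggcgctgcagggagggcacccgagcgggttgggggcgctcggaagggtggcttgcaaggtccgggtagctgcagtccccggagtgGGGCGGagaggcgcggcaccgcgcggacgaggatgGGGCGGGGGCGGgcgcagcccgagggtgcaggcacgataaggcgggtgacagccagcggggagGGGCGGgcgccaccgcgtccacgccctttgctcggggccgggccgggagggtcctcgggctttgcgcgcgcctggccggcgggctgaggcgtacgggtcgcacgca
The GC content was 83% at IRAK1, 83% at ZNF592, 78.3% at MNX1 and 77.3% at ABCB10, with 52, 42, 44 and 39 CpG dinucleotides. GC boxes numbered 4, 4, 5 and 4, counting overlapping matches. HDGF of starved cells covered all 300 bases at ABCB10 but none of the printed bases at IRAK1, ZNF592 and MNX1, where it overlapped only 175, 151 and 289 bases beside them in the same INTS13 interval. The INTS13 summit lay 70 bp before the start of IRAK1 and 185, 70 and 83 bp after those of ZNF592, MNX1 and ABCB10.

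Such starts were few. In all, 24 start regions of 22 protein-coding genes lay whole inside a joint interval, and HDGF of starved cells covered at least 1 base of 17 of them and none of 7. They had a median GC content of 69.2% (57.7 to 83) and a median of 29 CpG dinucleotides. The same values were 73.8% and 38 for the 16 regions inside starvation-only intervals without HDGF, 70.7% and 34 for the 131 inside shared intervals, and 62.3% and 21 over all 22131 protein-coding start regions used. The GC box was in 17 of the 24 (70.8%), against 81.2% of the start regions inside starvation-only intervals without HDGF, 75.6% of those inside shared intervals and 56.3% of all start regions. For the other motifs, set against all start regions, the CCAAT box CCAAT was in 5 (20.8% against 34.6%), the TATA box TATAAA in 1 (4.17% against 9.46%), the YY1 motif AANATGGC in 2 (8.33% against 7.37%), the NRF1 motif in 1 (4.17% against 10.6%) and the ETS motif CCGGAAG in 1 (4.17% against 12.8%), both strands being searched. The ATF4 element TGATGNAAN, the cyclic AMP response element TGACGTCA and the E-box CACGTG were in none of the 24, and in 2.69%, 2.26% and 8.34% of all start regions. Matches of short motifs depend on GC content, which differed between these sets, and with 24 regions the counts are a description. NSD1, which encodes a methyltransferase of histone H3, contributed 3 alternative starts to the same interval (INTS13 fold 3.65, HDGF fold 4.06). Others were SLC19A1, the reduced folate carrier (3.76 and 3.70), SLC39A6, a zinc transporter, and ELP2, an Elongator subunit, which share 1 interval (3.76 and 2.63), TXNRD2, the mitochondrial thioredoxin reductase (3.47 and 2.90), PDIA4, a disulfide isomerase of the endoplasmic reticulum (3.18 and 2.54), and HLCS, the biotin ligase (3.18 and 3.07).

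Most joint intervals lay where HDGF was listed in starved cells and not in control cells. HDGF of control cells was not itself part of the choice, but the choice removed intervals that touched INTS13 of HDGF-depleted or control cells. Joint intervals with HDGF in control cells were closer to those lists, 78.7% lying within 1 kb of one, against 48.7% of those without. The shares below are therefore not independent of the choice, and the contrast with shared intervals may be partly fixed by it. Of the 3574 joint intervals 771 touched an HDGF interval of control cells (21.6%, interval 20.2 to 23), while 2803 touched none. Over all INTS13 intervals of starved cells the share was 42.3%. It was 67.1% (66 to 68.1) in shared intervals with HDGF in starvation, 25.7% (23.8 to 27.7) in shared intervals without it and 7.87% (6.83 to 9.01) in starvation-only intervals without it. Seen from HDGF, 28.5% (27 to 30) of the 3469 HDGF intervals of starved cells under a joint interval touched an HDGF control interval, against 67.3% (66.2 to 68.5) of the 6738 under other INTS13 intervals only and 31.5% (31.1 to 31.9) of the 57908 under none. The sites of HDGF under joint intervals thus had a share near that of HDGF sites without INTS13, and of all HDGF sites in starvation (34.9%).

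**Figure D1:**
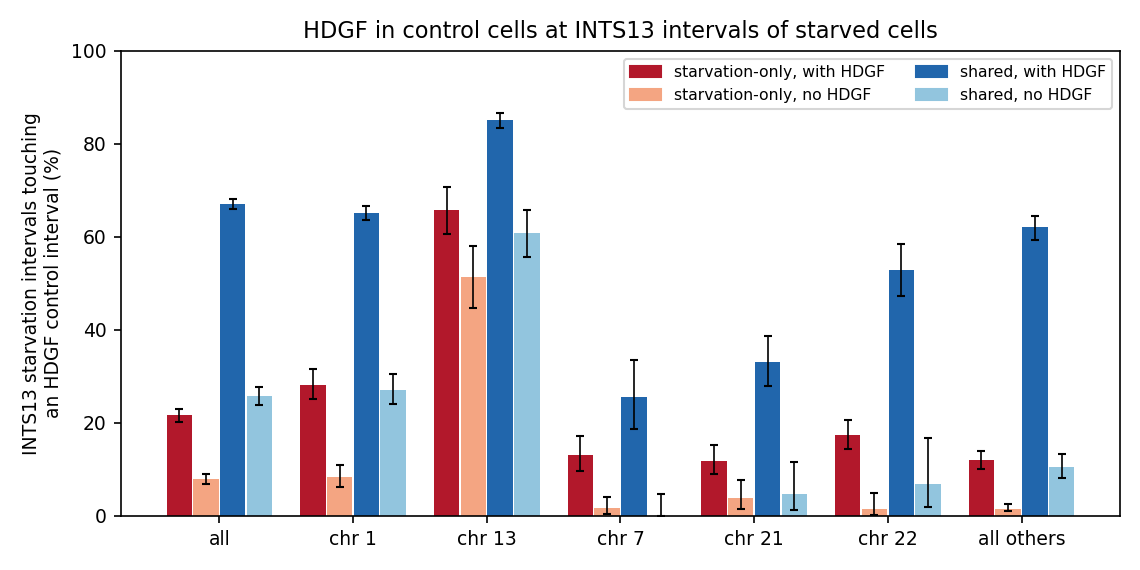
Share of INTS13 intervals of starved cells that touched an HDGF interval of control cells, in percent, for 4 classes of interval over all chromosomes and within chromosome sets. Bars are shares and lines exact 95% intervals for counting error; the joint intervals (starvation-only, with HDGF) stand at 21.6% over all chromosomes and 65.8% on chromosome 13, and shared intervals with HDGF at 67.1% and 85.1%.

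This order of the 2 classes with HDGF held in each chromosome set of the plot of HDGF in control cells. The joint intervals and the shared intervals with HDGF stood at 28.2% and 65.1% on chromosome 1, 65.8% and 85.1% on chromosome 13, 13.1% and 25.5% on chromosome 7, 11.8% and 33% on chromosome 21, 17.3% and 52.8% on chromosome 22, and 11.9% and 62% on the remaining chromosomes. Joint intervals were narrower, with a median of 328 bp against 462 bp in shared intervals with HDGF, but the order also held in each of 4 width classes, at 20.7% and 61.1% in the narrowest and 19% and 75% in the widest. The 2 classes also differed in the local density of HDGF. HDGF of control cells covered a median of 6.94% of the 5 Mb bin around a joint interval and 24.2% around a shared interval with HDGF. HDGF of starved cells covered 7.83% and 18.3%. The part of this density in the shares was not tested. An HDGF control interval lay within 1 kb of a further 687 joint intervals without touching them, and 2116 (59.2%) had none within 1 kb.

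Joint intervals without HDGF in control cells and those with it had INTS13 peaks of the same median height, a fold of 2.89 in both. Their HDGF peaks of starved cells had a median fold of 3.07 and a median width of 621 bp without HDGF in control cells, against 3.34 and 868 bp with it. In the second group the HDGF control interval had a median fold of 3.12, from a separate list whose folds are not on a common scale. The share with HDGF in control cells changed little with the strength of the INTS13 peak, from 23% (20.2 to 25.9) of the 884 joint intervals with a −log10 q under 2 to 22.5% (16.4 to 29.5) of the 169 with a −log10 q of at least 5.

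**Figure D2:**
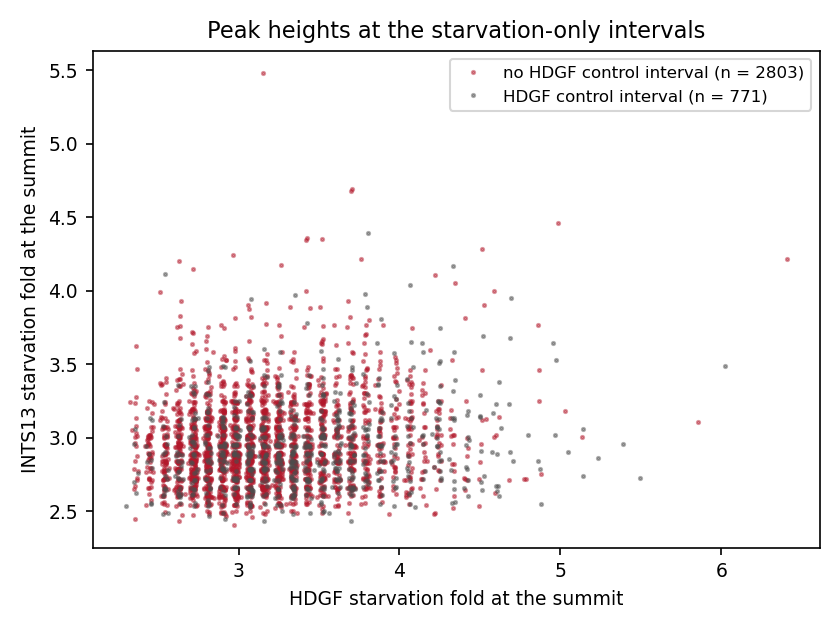
Height of the INTS13 peak (vertical axis) against the strongest HDGF peak it touches (horizontal axis) at the 3574 joint intervals, both as the authors' fold over background at the summit in starved cells. Points are shifted slightly at random for visibility; the medians are 2.89 for INTS13 and 3.16 for HDGF, and intervals with and without HDGF in control cells overlap throughout.

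Peaks were low. The INTS13 fold at joint intervals had a median of 2.89 (2.43 to 5.50) and the −log10 q a median of 2.71. A −log10 q of at least 5 was reached by 4.73% (4.06 to 5.48). For shared intervals with HDGF this share was 22.4% (21.5 to 23.4), and for all INTS13 intervals in starvation 14.4%. Starvation-only intervals without HDGF stood at 5.27% (4.42 to 6.24), with a median fold of 2.84 and a median −log10 q of 2.32. Low peaks were thus not particular to joint intervals. The lowest −log10 q in the list was 1.32. INTS13 and HDGF summits lay a median of 196 bp apart, and 58.4% were within 250 bp. The INTS13 summit itself lay inside an HDGF interval at 2856 joint intervals (79.9%) and outside at 718. HDGF covered a median of 92.6% of a joint interval, 1607 intervals (45%) lay whole inside HDGF, and 683 (19.1%) had less than 50% of their bases in it. Of the 3469 HDGF intervals 3273 carried 1 joint interval, 162 carried 2, 26 carried 3, 7 carried 4 and 1 carried 5, so joint intervals on 1 HDGF domain share their HDGF value.

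Many joint intervals were close to INTS13 of other conditions without touching it. The nearest INTS13 interval of HDGF-depleted or control cells lay a median of 815 bp away, and for 1971 joint intervals (55.1%, 53.5 to 56.8) within 1 kb. For HDGF-depleted cells, whose list is the longest, 49.7% had one within 1 kb, and for control cells 20.8%. In starvation-only intervals without HDGF the share near either list was 40.9% (38.9 to 42.9). Only 160 joint intervals (4.48%) were more than 10 kb from both lists, and 1203 (33.7%) were more than 1 kb from both and from HDGF of control cells. At the edge of the choice, 22 joint intervals shared 10 or fewer bases with HDGF and 60 lay within 10 bp of another INTS13 list. Just outside it, 28 starvation-only intervals lay within 10 bp of HDGF without touching it, and 56 intervals with HDGF shared 10 or fewer bases with another INTS13 list. An interval in MOXD1 on chromosome 6 from 132304971 to 132305310 was a member through 2 shared bases (INTS13 fold 2.72), whereas one in SEMA3F on chromosome 3 from 50176578 to 50177191 abutted HDGF with no shared base (fold 2.95).

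More than 50% of joint intervals lay inside protein-coding genes, and few lay at gene starts. The summit lay inside a protein-coding gene in 59.4% (57.7 to 61), against 45.1% (43.1 to 47.1) of starvation-only intervals without HDGF, 39.5% (38.4 to 40.6) of shared intervals with HDGF and 37.3% (35.1 to 39.5) of shared intervals without it. The level followed the chromosome: on chromosomes 1 and 13 it was 43.5% (40.6 to 46.5) for joint and 37.4% (36.1 to 38.7) for shared intervals with HDGF, on chromosomes 7, 21 and 22 it was 65.6% (63 to 68.1) and 54.6% (51.1 to 58.2), and on the remaining chromosomes 67.7% (64.8 to 70.4) and 38.9% (36.4 to 41.5). It lay inside no gene of any kind and over 1 kb from any boundary in 27.2% (25.7 to 28.7), against 38.2% of all INTS13 intervals in starvation. Summits within 1 kb of either end of a protein-coding gene numbered 326 (9.12%, 8.2 to 10.1), near the 9.07% of all INTS13 intervals in starvation. A start of a protein-coding gene was within 1 kb of 167 joint summits (4.68%, 4.01 to 5.43), 119 of them after the start and 48 before it, against 13.5% (12.2 to 15) of starvation-only summits without HDGF, 3.43% (3.03 to 3.86) of shared summits with HDGF, 12.8% (11.4 to 14.4) of shared summits without it and 6.45% of all INTS13 summits in starvation. On chromosomes 1 and 13 the share at starts was 3.88% (2.82 to 5.19) for joint and 4.55% (3.17 to 6.3) for starvation-only summits without HDGF, with overlapping intervals, while on the chromosomes other than 1, 7, 13, 21 and 22 it was 6.57% (5.17 to 8.22) and 23% (20.6 to 25.7). The 9 joint intervals on chromosome 8 were left out of the values for starts.

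**Figure D3:**
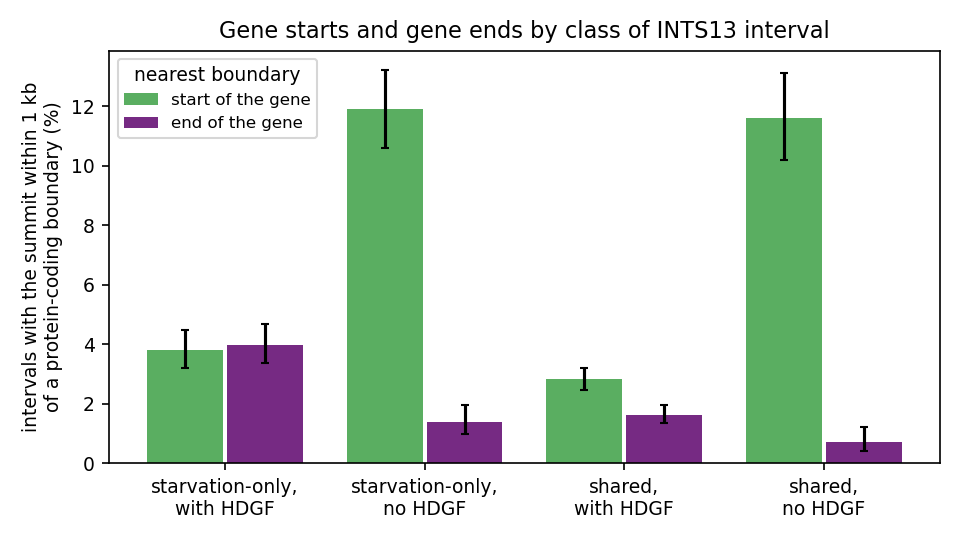
Share of each class of INTS13 intervals of starved cells, in percent, whose summit lay within 1 kb of a protein-coding gene boundary, split by whether the start or the end of the gene was nearest. Bars are shares and lines exact 95% intervals for counting error; joint intervals stand at 3.81% for starts and 3.97% for ends, and starvation-only intervals without HDGF at 11.9% and 1.4%.

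Joint intervals at gene boundaries were as often at the end of the gene as at its start. Of the 278 whose nearest gene had a known strand, 142 were nearest the end (51.1%, 45 to 57.1), against 26.7% over all INTS13 intervals of starved cells. The share was 10.6% (7.42 to 14.4) of 322 starvation-only intervals without HDGF, 36.7% (31.5 to 42) of 341 shared intervals with HDGF and 5.86% (3.24 to 9.63) of 239 shared intervals without it. Among HDGF intervals at a boundary of known strand, 54.2% (52.7 to 55.6) of 4760 in starved cells were nearest the end. In control cells it was 61.7% (60.2 to 63.2) of 4238. These boundary intervals were a small part of the 68115 and 106673 HDGF intervals. Joint intervals were chosen to touch HDGF, so a share near that of HDGF is partly fixed by the choice. Where the joint interval also touched HDGF in control cells, 35 of 50 were at ends (70%, 55.4 to 82.1), and where it did not, 107 of 228 (46.9%, 40.3 to 53.6). On chromosomes 7, 21 and 22 the share was 64% (54.5 to 72.8) for joint and 35.2% (22.7 to 49.4) for shared intervals with HDGF. On chromosomes 1 and 13 it was 37.5% (25.7 to 50.5) and 36.5% (29.6 to 43.7), so the 2 classes differed little there. On the remaining chromosomes it was 45% (35 to 55.3) and 37.9% (28.1 to 48.4), with overlapping intervals. The 2 classes were thus clearly apart only on chromosomes 7, 21 and 22, a set grouped after the counts were seen. The share also moved with the window and with peak strength, at 42.8% within 500 bp, 61.3% within 2500 bp and 39.7% where the INTS13 −log10 q was at least 3.

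Joint intervals marked 325 protein-coding genes within 1 kb of a boundary, 1.63% of the 19970 genes, while any INTS13 interval of starved cells marked 6.74%. For 204 of the 325 (62.8%) INTS13 of HDGF-depleted or control cells was also listed at a boundary of the gene, against 20.1% of all genes, so at most of these genes INTS13 was not confined to starved cells. INTS13 of control cells alone was at 73 of them (22.5%, against 4.79% of all genes) and HDGF of control cells at 174 (53.5%, against 19.4%). The genes with the strongest INTS13 after IRAK1, ZNF592 and MNX1 were SRCAP, the ATPase of a chromatin remodeller that deposits a histone variant (INTS13 fold 4.17, HDGF fold 4.33), POTEH (4.22 and 3.79), ACTA1, skeletal muscle actin (4.05 and 4.33), and AGPAT3, an acyltransferase of phospholipid synthesis (3.99 and 2.54). They were followed by ZNF467 (3.93 and 3.16), ABCB10, PPA1, a pyrophosphatase (3.93 and 2.63), CERS2, a ceramide synthase (3.82 and 4.42), and RNPEP, an aminopeptidase (3.82 and 3.07). All but PPA1 and CERS2, whose strand was not in the table used, were nearest the start. POTEH has near-identical paralogs, so its value is uncertain.

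The genes with the strongest HDGF at a joint interval were, except for CERS2, others than those with the strongest INTS13. C1orf35 had an HDGF fold of 5.85 in a domain of 10099 bp and an INTS13 fold of 3.13. HSD3B7, an enzyme of bile acid synthesis, had an HDGF fold of 5.13 and an INTS13 fold of 3.07, MAZ, a zinc finger transcription factor, 5.04 and 3.18, and RNF187, a ubiquitin ligase, 4.96 and 3.65. LOC124904532 had 4.96 and 3.53, DGCR6L 4.87 and 2.72, FASTK 4.60 and 3.18, and TOMM20, an import receptor of the mitochondrial outer membrane, 4.60 and 2.66. FAM229A (4.51 and 3.70) and TSSK3 (4.51 and 3.13), a kinase of the testis, had separate joint intervals on 1 HDGF domain. HDGF of control cells was touched at HSD3B7, RNF187, LOC124904532, FASTK, TOMM20, FAM229A and TSSK3. It was not touched at C1orf35, MAZ, DGCR6L and CERS2, but lay only 96, 540, 412 and 362 bp from those intervals. At HSD3B7, DGCR6L, FASTK and TOMM20 the end of the gene was nearest. The HDGF summit was 2788 bp from the INTS13 summit at C1orf35, 2885 bp at MAZ and 3012 bp at RNF187, so there the HDGF fold belongs to the domain and not to the INTS13 site. In the C1orf35 interval INTS13 of HDGF-depleted cells was only 35 bp and that of control cells 248 bp away. At TOMM20 these distances were 223 and 279 bp, and at MAZ 1266 and 280 bp.

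Among list genes of known strand with a joint interval at a boundary, 7 had it nearest the end and 6 nearest the start, close to the 51.1% at ends among all joint boundary intervals. TSC2, which restrains mTORC1, had an INTS13 fold of 3.01 on chromosome 16 from 2090028 to 2090610, 820 bp from the end of the gene, with an HDGF fold of 4.78 in starved cells and 3.25 in control cells. CASTOR1, the arginine sensor upstream of mTORC1, had an INTS13 fold of 2.66 and an HDGF fold of 3.43 in starved cells. No HDGF interval of control cells was touched there, the nearest lying 892 bp away. SESN2, a stress-induced inhibitor of mTORC1, had an INTS13 fold of 2.78 on chromosome 1 from 28282529 to 28282728, 115 bp from its end, and HDGF folds of 4.42 in starved and 4.81 in control cells. PFKL, a phosphofructokinase of glycolysis, had an INTS13 fold of 3.59 on chromosome 21 from 44326758 to 44328353 and HDGF folds of 4.15 in starved and 2.86 in control cells. ALDOA, the glycolytic aldolase, had 2.84 for INTS13 and 4.33 and 4.68 for HDGF in starved and control cells. At SESN2 and ALDOA INTS13 of HDGF-depleted cells (293 and 292 bp) and of control cells (135 and 406 bp) lay within 500 bp of the joint interval. FDPS, an enzyme of the cholesterol pathway, had 3.01 for INTS13 and 3.43 and 4.16 for HDGF in starved and control cells, and INTS1, the largest Integrator subunit, 2.61 for INTS13 and 2.98 for HDGF in starved cells, with the nearest HDGF control interval 30760 bp away. These 7 genes were nearest their ends.

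At other genes of the lists the start was nearest. JUN, an immediate early transcription factor, had its summit 349 bp before the start, with 3.13 for INTS13 and 3.07 for HDGF in starved cells, and JUND 509 bp before the start with 3.41 and 2.63. RPL10 of the large ribosomal subunit had 3.07 for both proteins, 432 bp before its start. INTS13 of HDGF-depleted cells lay 192 bp and that of control cells 271 bp from the JUN interval. INTS13 of HDGF-depleted cells lay 428 bp from the RPL10 interval and 2805 bp from the JUND interval. MAZ, ZNF592 and ACTA1 are given above. By list, the counts were 2 of 22 AMPK and mTOR genes, 2 of 27 glycolysis genes, 2 of 37 immediate early genes, 2 of 23 zinc finger and NAB partner genes, 1 of 36 stress response genes, 1 of 79 ribosomal protein genes, 1 of 19 Integrator genes and 1 of 17 muscle genes. Any INTS13 interval of starved cells was at 4, 3, 7, 2, 5, 3, 2 and 2 of them.

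A further 13 lists had no joint interval at a boundary. Among these, INTS13 of starved cells was at 7 of 34 genes of polymerase II pausing and termination, 5 of 38 cell cycle genes, 4 of 36 oxidative phosphorylation genes, 3 of 25 snRNA genes, 2 of 20 aminoacyl-tRNA synthetase genes, 2 of 21 serine and amino acid supply genes and 1 of 5 HDGF family genes, in each case by intervals outside the joint set. It was at 0 of 43 autophagy and lysosome genes, 0 of 57 replication-dependent histone genes, 0 of 40 translation factor genes, 0 of 40 cilia genes, 0 of 20 blood genes and 0 of 16 liver genes. With 1.63% of genes marked by a joint interval, a list of this size holds about 1 or none, so a count of 0 does not set a list apart. Of the lists counted above, those with 2 genes stood at 5.41 to 9.09% and those with 1 gene at 1.27 to 5.88%. These rest on 1 or 2 genes each, and their difference from 1.63% was not tested. Any INTS13 interval of starved cells marked 6.74% of protein-coding genes. Its share was 20.6% of the pausing and termination genes, 13.2% of the cell cycle genes and 0% of the translation factor genes. These differences were not tested.

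Joint intervals were spread over chromosomes unlike the shared INTS13 intervals of starved cells. Chromosomes 7, 21 and 22 held 38.5% of them, against 13.1% of the other INTS13 intervals of starved cells, 14.2% of INTS13 in HDGF-depleted cells, 8.52% of INTS13 in control cells and 8.15% of protein-coding genes. HDGF had 16.8% of its intervals there in starved and 12.8% in control cells. Chromosomes 1 and 13 held 31% of joint intervals, against 60.6% of the other INTS13 intervals of starved cells. This low share was not particular to joint intervals. These chromosomes held 1108 of 3574 joint and 747 of 2428 starvation-only intervals without HDGF. They held 5432 of 7673 shared intervals with HDGF and 1122 of 1939 without it. The choice removed intervals that touched INTS13 of control cells, a list with 64.2% of its intervals there. Its part in the low share was not tested. On chromosomes 7, 21 and 22 the counts were 1377 joint and 577 starvation-only intervals without HDGF. On chromosome 22, 583 of 1107 INTS13 intervals of starved cells were joint (52.7%, 49.7 to 55.6), on chromosome 21 459 of 1038 (44.2%, 41.2 to 47.3) and on chromosome 7 335 of 807 (41.5%, 38.1 to 45). Chromosome 3, with 133 of 298 (44.6%, 38.9 to 50.5), and chromosome 5, with 144 of 327 (44%, 38.6 to 49.6), had shares as high from fewer intervals. Chromosome 1 had 763 of 5505 (13.9%, 13 to 14.8), chromosome 13 had 345 of 2904 (11.9%, 10.7 to 13.1) and chromosome 9 had the lowest share, 29 of 521 (5.57%, 3.76 to 7.9). The grouping of chromosomes 7, 21 and 22 was made after the counts were seen. The number of chromosome copies in these cells was not measured in the files used, and its part in these shares was not tested.

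**Figure D4:**
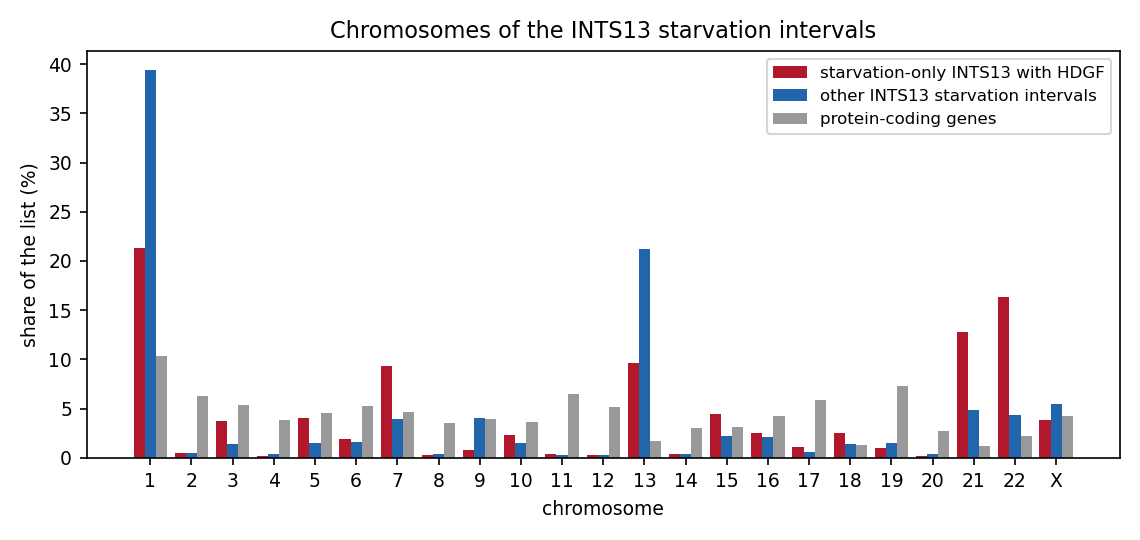
Share of each list on each chromosome, in percent, for the 3574 joint intervals, the other INTS13 intervals of starved cells and protein-coding genes. Joint intervals had 16.3% on chromosome 22 and 12.8% on chromosome 21, and 9.65% on chromosome 13.

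Joint intervals were clustered, as were all INTS13 intervals of starved cells. The nearest other joint interval was a median of 7495 bp away, and 55.5% had another within 10 kb. Among all 15614 INTS13 intervals the nearest other was 2039 bp away and 78.6% had one within 10 kb, distances that also depend on the number of intervals. At least 50% of joint intervals fell into 15 bins of 5 Mb, against 32 bins for starvation-only intervals without HDGF, 6 for shared intervals with HDGF and 13 for all INTS13 intervals. The fullest was on chromosome 21 between 40 and 45 Mb, with 227 joint intervals among 416 INTS13 and 1105 HDGF intervals of starved cells. Control cells had 678 HDGF and 184 INTS13 intervals in that bin, and HDGF-depleted cells had 1112 INTS13 intervals. The adjoining bin, between 45 and 50 Mb, had 149 joint intervals among 234 INTS13 and 614 HDGF intervals of starved cells, against 384 HDGF and 68 INTS13 intervals in control cells. On chromosome 22 the bin between 20 and 25 Mb held 195, with 1158 HDGF intervals in starved and 1081 in control cells, and the bin between 35 and 40 Mb held 156. On chromosome 1 the bin between 30 and 35 Mb held 137 among 669 INTS13 intervals of starved cells. On chromosome 13 the bin between 65 and 70 Mb held 136 among 1181 INTS13 intervals of starved cells, with 1944 INTS13 intervals in control cells. On chromosome 7 the bin between 150 and 155 Mb held 123. Of all joint intervals 28.9% (27.4 to 30.4) lay within 10 Mb of the last annotated gene end of their chromosome, against 12% (11.4 to 12.6) of the other INTS13 intervals of starved cells and 11.6% (11.2 to 12.1) of protein-coding genes. For HDGF this share was 19.6% (19.3 to 19.9) in starved and 10.4% (10.2 to 10.6) in control cells. These shares also depend on the chromosomes, because 10 Mb is a larger part of a short one. The short chromosomes 21 and 22 held 29.2% of joint and 9.16% of the other INTS13 intervals of starved cells. The shares near the last gene end were not compared within chromosomes, so a preference for chromosome ends was not tested.

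The 3 widest joint intervals lay on the same stretch of chromosome 15. The widest spanned 4672 bp on chromosome 15 from 20300592 to 20305263, inside LOC124903442, with an INTS13 fold of 4.34, and the next, of 2506 and 2260 bp, started at 20350403 and 20356646, near the pseudogene LOC124903613. The second strongest joint interval, on chromosome 22 from 12601182 to 12602885, was 13327 bp from the pseudogene FRG1GP (INTS13 fold 4.69, HDGF fold 3.70). Reads from near-identical copies cannot be placed with certainty in such regions. The fifth strongest, on chromosome X from 141001013 to 141001316, lay 1435 bp from SPANXB1 (4.40 and 3.79), which has near-identical paralogs, and touched HDGF of control cells with a fold of 5.07.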

How the data were processed

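The samples were 16 libraries in 8 groups of 2, of which 5 groups were ChIP and 3 input; input libraries were not analysed here. The authors deposited 1 MACS2 peak list per ChIP group on build hg38, and per the submitters' processing notes FastQC, Trimmomatic, Bowtie and Picard were used before it. Peak names carry the value 0.05. The sources used here give no versions or other settings, nor the way replicates and inputs were combined. Each deposited peak has its fold ratio over background, the −log10 of its p-value and of its q-value, a score that is 10 times the −log10 q cut to a whole number, and a summit position. Folds and −log10 q describe or rank peaks within 1 list only. The background in reads was fitted to the pairs of fold and p as a Poisson mean.

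Overlap meant at least 1 shared base. Genes and start regions came from RefSeq tables of GRCh38.p14; strand was taken from the table of start regions, which was matched by gene ID to 15811 of 19970 protein-coding genes. A summit within 1 kb of either end of a gene counted as at its boundary, and ends were told from starts by the nearest boundary. The overlap functions were tested on simulated intervals against bedtools. Python 3.11.15, pandas 2.3.3, numpy 2.4.6 and scipy 1.17.1 were used.

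The intervals, the 23 gene lists and the alternatives were chosen with earlier results of these data known. Named genes were the 12 with the highest INTS13 −log10 q, the 12 with the highest HDGF −log10 q, up to 4 per list, up to 12 small RNA genes, and the 5 strongest and 5 widest intervals; the split into starts and ends, the start regions discussed and the examples at the edge were chosen after values were seen. Results for some named genes, for 1 of the strongest intervals and for 2 gene lists are not reported here. Peaks do not measure expression, so the cell type was not checked.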

Additional observations from a re-analysis of the deposited data

How the results depend on the processing

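No paired analysis was possible because each group has 1 peak list, and no replicate could be left out. Of 63 values under alternatives 20 stayed within 1.5 times the reported count or inside the counting interval of the reported share, and 43 moved.

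The 3574 joint intervals became 2167 with summits within 250 bp, 1396 with an INTS13 −log10 q of at least 3, 1603 with no other INTS13 interval within 1 kb, 5973 with the other INTS13 lists at equal length, 5988 with absence from the control list only, 1746 without chromosomes 1, 13, 22 and X and 2197 without chromosomes 7, 21 and 22. In the same order of settings, the 325 genes became 212, 147, 151, 493, 503, 172 and 196, and were 205 and 571 with windows of 500 and 2500 bp. The share with HDGF in control cells, 21.6%, became 20.1, 20.1, 10.2, 29.9, 31.5, 12.6 and 26%, and 23.7% with an HDGF −log10 q of at least 3. In each of these settings it stayed below the share of shared intervals with HDGF, a class that the setting itself could redefine (59.6 to 78.4%). The 59.6% belongs to the setting with no other INTS13 interval within 1 kb. There the 9644 intervals counted as shared included starvation-only intervals close to another INTS13 list. The share at protein-coding boundaries, 9.12%, was 10.4% with an INTS13 −log10 q of at least 3, 5.48% and 17.4% with windows of 500 and 2500 bp and 10.5% with any base in the window. The share of starvation-only intervals that met HDGF, 59.5%, was 36.1, 63.5, 52.8, 63.5, 64.6, 57.3 and 54.3% in the order above, 47.3% with at least 50% of the interval in HDGF and 45.4% with an HDGF −log10 q of at least 3. The share of boundary intervals nearest a gene end, 51.1%, was 57.6% with at least 50% of the interval in HDGF, 57.3% with an HDGF −log10 q of at least 3, 39.7% with an INTS13 −log10 q of at least 3, 42.1% without chromosomes 7, 21 and 22, and 42.8% and 61.3% with windows of 500 and 2500 bp. The setting without chromosomes 7, 21 and 22 and all alternatives for gene ends were chosen after seeing the data. The causes were not tested. Without read totals, depth limits which weak peaks were listed: absence of a peak does not show absence of protein.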

Other observations

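Among genes that do not code for protein, joint intervals had a summit within 1 kb of a boundary at 139 of 18177 lncRNA genes (0.765%), 20 of 1911 miRNA genes (1.05%), 4 of 1196 snoRNA genes (0.334%) and 1 of 443 tRNA genes (0.226%). The share of protein-coding genes was 1.63%. In a short gene the windows at both ends largely overlap, so shares of short and long genes are not directly comparable. The small RNA genes with the strongest INTS13 were MIR718, 17 bp from the summit at IRAK1 (INTS13 fold 5.50), LOC124905069 (3.36), MIR3188 beside JUND (3.41), MIR3907 (3.30), MIR6511B1 (3.30) and MIR650 (3.30), which lies on chromosome 22. They were followed by MIR4428 (3.18), MIR6738 (3.13), SNORA94 (3.13), MIR1225 in the interval at TSC2 (3.01), MIR671 (3.01) and MIR1229 (2.95). HDGF of control cells was touched at MIR3907, MIR6738, MIR1225 and MIR671. MIR6511B1 has near-identical paralogs, so its value is uncertain.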
